A study of Mus musculus with 2 samples.

Results

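The Zfp genes are mouse genes named as zinc finger proteins, most of them C2H2 transcription factors. Members were taken by symbol, as Zfp followed by digits alone, and Zfp36, whose protein has fingers of the CCCH kind and binds mRNA, was left out. Of 22609 genes counted, 338 had such a symbol. Of these, 17 had 0 counts in both libraries, 16 had 1 to 19 counts summed over both, and 305 reached the minimum of 20 counts and are the members described here. They were compared with the 11881 other genes that reached the same minimum, 12186 genes in all.

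The counts come from Ago2 RNA immunoprecipitation and deep sequencing in TM4 cells, an established mouse Sertoli cell line. The experiment was made to find mRNAs that join Ago2 complexes when miR-471-5p is raised. Ago2 is the protein that holds a miRNA against the mRNAs it pairs with. One condition was a miR-471-5p mimic and the other a scramble control, both pulled down with the same Ago2 antibody 48 h after transfection and both grown in DMEM with serum. Each condition had 1 library, and no library of RNA before the pull-down was analysed here, so a change in Ago2 binding and a change in the amount of an mRNA cannot be told apart.

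A C2H2 finger is a short loop of protein held in shape by a zinc ion between 2 cysteines and 2 histidines, and fingers strung in a row read successive bases of DNA. Many Zfp proteins also carry a KRAB domain, which recruits the corepressor Trim28 and through it histone methylation and heterochromatin, and this class is best known for silencing retroelements and guarding imprints. Many of the genes arose by duplication and lie near their relatives, and the finger-coding sequence is repeated within a gene.

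The mimic and the DNA letters that pair with it are shown first because they define what the study introduced. Capitals mark the seed, bases 2 to 8. The mature miRNA is encoded on the minus strand at chrX:66792634-66792655 (GRCm38.p6, sequence from RefSeq).
mmu-miR-471-5p: uACGUAGUauagugcuuuucac

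The letters ACTACGT pair with all 7 seed bases, and they were rare in the family. The 3′-UTR held them in 5 of 303 members with an annotated coding region (1.65%), beside 161 of 11462 other genes (1.4%). The coding region held them in 3 members (0.99%), beside 508 other genes (4.43%), or 0.51 matches per 100 kb of coding sequence in members and 2.51 in the others. The search covered the transcribed strand of 1 reference transcript a gene and was chosen after the counts had been seen. A match is a string of letters and not a shown binding site. The following 27-base windows are those of 5 members that represent both regions and both directions of difference, with the match in capitals. In Zfp652, Zfp575 and Zfp90 the match lay in the last exon within the 3′-UTR (chr11:95771770-95771796, plus strand; chr7:24584458-24584484, minus strand; chr8:106425738-106425764, plus strand). In Zfp160 and Zfp654 it lay in the coding part of exon 5 (chr17:21025572-21025598, plus strand; chr16:64791915-64791941, minus strand; all GRCm38).
Zfp652: aaggtttaagACTACGTctaatctgga
Zfp575: agaggattgcACTACGTagctttggaa
Zfp90: ttcttgtagaACTACGTacggcatatg
Zfp160: tttattcttcACTACGTataaaaggac
Zfp654: tgttctttgaACTACGTgccagatacc

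Carriers of the match went in both directions. Counts are given with mimic first and scramble second, and the 95% counting interval of a log2 ratio comes from the exact binomial interval of the mimic share of the gene's counts. The lowest of them, Zfp652, a repressor that works with CBFA2T corepressors, had 178 counts with mimic and 380 with scramble. Its log2 ratio of mimic to scramble was -1.09 (95% counting interval -1.36 to -0.83). Zfp160 had 343 and 616 counts, a log2 ratio of -0.84 (-1.04 to -0.65). Both were lower with the mimic beyond counting error. Zfp575 had 45 and 26 counts, a log2 ratio of 0.78 (0.06 to 1.55), which was higher but rests on few counts. Zfp90 had 691 and 656 counts (0.07, interval -0.08 to 0.23) and Zfp654 had 1570 and 1486 (0.08, interval -0.02 to 0.18), so neither differed beyond counting error. Of the other carriers in the family, Zfp317 had 585 and 716 counts (-0.29, interval -0.45 to -0.13) and Zfp128 had 130 and 180 (-0.47, interval -0.81 to -0.14). Both were also lower beyond counting error. Zfp318 had 520 and 570 counts (-0.13, interval -0.31 to 0.04), so its interval held 0.

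As a whole the Zfp family was slightly lower in the Ago2 pull-down after the mimic. The members held 236386 counts with mimic and 253519 with scramble, 1.27% and 1.35% of all counts on genes. The summed members gave a log2 ratio of -0.10 (-0.11 to -0.09). Member by member, the median log2 ratio was -0.14, with an interquartile range of 0.423, whereas the other genes had a median of 0.01 and an interquartile range of 0.584. The ratio was below 0 for 208 of 305 members (68.2%), beside 50.1% of all genes tested. On the upper side the 95th percentile was 0.40 for members and 0.92 for other genes, while the 5th percentiles were -0.84 and -0.79.

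**Figure D1:**
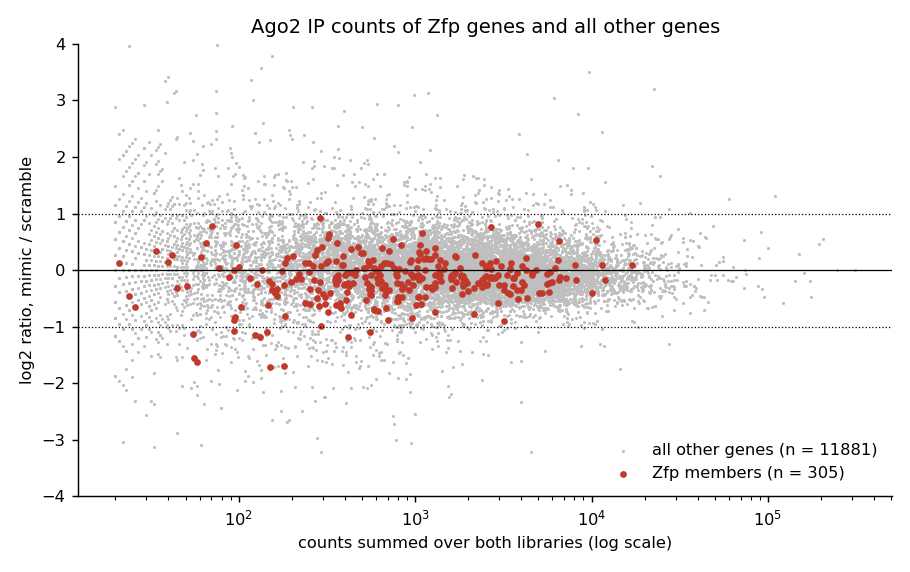
Log2 ratio of mimic to scramble (vertical axis) against counts summed over both libraries (horizontal axis, log scale), for 305 Zfp members in red and 11881 other genes in grey, with dotted lines at -1 and 1. No member lies above 1 and 11 lie at or below -1, and 8 other genes fall outside the plotted range.

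A log2 ratio of at most -1, which is a 2-fold difference, was found for 11 members (3.61%), beside 2.95% of all genes tested. A ratio of at least 1 was found for 0 members, beside 3.96% of all genes tested. The 95% counting interval lay wholly below 0 for 127 members (41.6%), beside 32.5% of all genes tested. It lay wholly above 0 for 43 members (14.1%), beside 31.5% of all genes tested, and it held 0 for 135 (44.3%). These intervals cover counting error of these libraries alone, since PCR reads are not independent molecules and the spread between replicate cultures is unknown, and no p-value can be given. The share of members at least 2-fold lower was therefore near the background, while the shares below 0 and wholly above 0 departed from it. With at least 200 counts, 2 of 261 members (0.766%) were at least 2-fold lower, beside 1.91% of other genes.

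**Figure D2:**
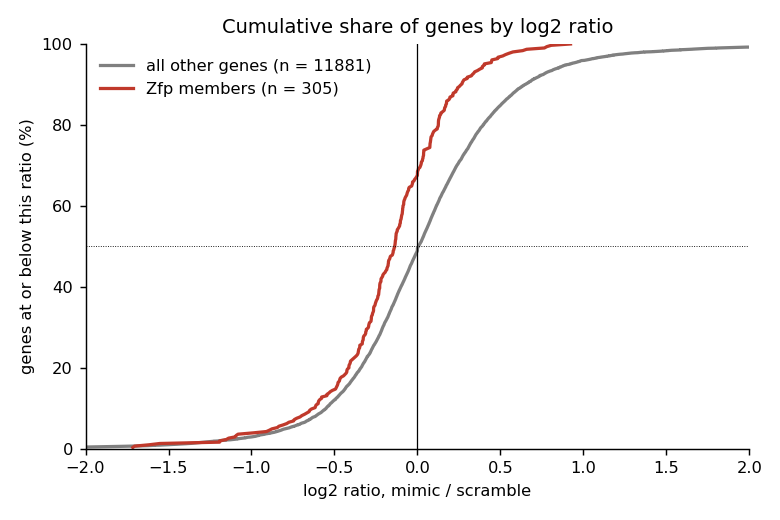
Cumulative share of genes (vertical axis, percent) at or below a given log2 ratio of mimic to scramble (horizontal axis, shown from -2 to 2), for members in red and other genes in grey. The red curve crosses 0 at 68.2% and the grey curve at 49.6%, and the curves lie close together below -1.

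The libraries were of like depth, with 18628310 counts on genes for the mimic and 18717225 for the scramble, so that 3 counts correspond to 0.161 and 0.16 CPM (counts scaled to the library total). Of all entries in the mimic and scramble tables, 39.8% and 35.6% were alignments to more than 1 place, which are not counted on any gene. Among Sertoli markers, Sox9 (1228 and 1070 counts), Gata4 (341 and 365) and Wt1 (73 and 35) were found, whereas Fshr and Gata1 had 0 counts in both libraries and Amh had 5 in each. Of the 13 Sertoli markers that were listed and counted, 6 reached 20 counts, and the summed level of all 13 was 124 CPM with mimic and 112 with scramble. Markers of germ cells summed to 7.35 and 8.12, of Leydig cells to 4.51 and 4.70, of macrophages to 1.56 and 1.92 and of endothelial cells to 2.68 and 3.21 CPM. Those of peritubular myoid cells summed to 3924 and 5439, almost all of it Acta2 (73076 and 101778 counts), while Myh11 had 6 counts in each library and Des 7. The part of these differences in the family's ratios was not tested.

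The members with the most counts in the pull-down differed little between the libraries, apart from Zfp503 and Zfp704. Zfp281, a regulator of pluripotency genes, had the most counts, 8825 with mimic and 8245 with scramble (log2 ratio 0.10, interval 0.05 to 0.14). Zfp740 had 5566 and 6323 counts (-0.18, interval -0.24 to -0.13). Zfp217, whose human counterpart is amplified in breast cancer, had 5897 and 5569 counts (0.08, interval 0.03 to 0.14). The first and the last of these were slightly higher with mimic and Zfp740 was slightly lower, each beyond counting error. The 10 members with the most counts took 20.6% of the family's counts with mimic and 19.4% with scramble.

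Per length of transcript the order changed. On the scale of CPM per kb of reference transcript in the scramble library, Zfp207, a spindle protein also called BuGZ, was first at 104, followed by Zfp281 at 89.2, Zfp740 at 87.0 and Zfp414 at 80.5. In the mimic library the same quantity was 118 for Zfp207, 96.0 for Zfp281, 77.0 for Zfp740 and 141 for Zfp414. Zfp414 thus stood above Zfp207 in the mimic library and below it in the scramble library. Next in the scramble library came Zfp362 (59.2), Zfp62 (57.6), Zfp830 (56.0) and Zfp503 (55.1), and Zfp704, one of the 5 members with the most counts (5758 with scramble), reached 22.2 on a reference transcript of 13834 bases.

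The lower end held members with from 6 to 23 finger motifs. Among the 261 members with at least 200 counts, the lowest was Zfp526, with 126 counts under mimic and 288 under scramble (log2 ratio -1.19, interval -1.51 to -0.89). Zfp652 came next, with the counts given beside its seed match. Zfp458, a KRAB member with 20 finger motifs, had 98 and 195 counts (-0.99, interval -1.36 to -0.64), and 12.8% of its transcript's 31-base words occur in transcripts of other genes. The best-covered of the low members was Zfp664, with 1112 and 2089 counts (-0.91, interval -1.02 to -0.80). These were all lower with mimic by more than counting error, which is likely for members picked by their ratio. Zfp715 had 245 and 455 counts (-0.89) and carries KRAB and 18 fingers, and Zfp251 had 791 and 1353 (-0.77), Zfp748 487 and 817 (-0.75), Zfp709 120 and 201 (-0.74). Zfp498, now named Zscan25, had 158 and 273 counts (-0.79). The median number of finger motifs over the 10 lowest was 15.5, and 5 of them had a KRAB pattern.

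The upper end held members with from 0 to 9 finger motifs. Zfp688 had 190 counts with mimic and 100 with scramble (log2 ratio 0.92, interval 0.57 to 1.29). Zfp414 had 3154 and 1803 counts (0.81, interval 0.72 to 0.89), although 26.2% of its 31-base words are shared with other transcripts, so its count may be uncertain. Zfp187, now named Zscan26, had 1695 and 997 counts (0.76, interval 0.65 to 0.88). Zfp503, a repressor of the NET family that acts in brain and limb development, had 6286 and 4350 counts (0.53, interval 0.47 to 0.59), and Zfp386, a KRAB member, had 3859 and 2701 (0.51, interval 0.44 to 0.59). The remaining members of the upper 10 were Zfp511 (671 and 425 counts, 0.66), Zfp771 (199 and 128, 0.63), Zfp524 (191 and 128, 0.57), Zfp444 (443 and 302, 0.55) and Zfp692 (210 and 150, 0.48). For Zfp524, 46.8% of the 31-base words are shared, so its count may be uncertain. All 10 intervals lay above 0, which is likely for members picked by their ratio and is no separate evidence. The median number of finger motifs over these 10 was 4, and 2 had a KRAB pattern.

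**Figure D3:**
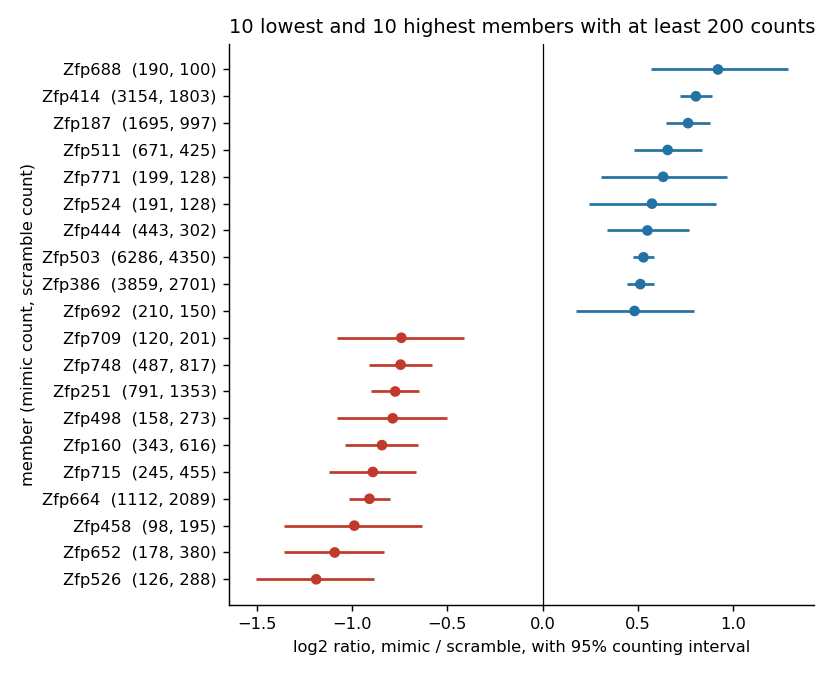
Log2 ratio of mimic to scramble (horizontal axis) with its 95% counting interval for the 10 lowest (red) and 10 highest (blue) members with at least 200 counts, each labelled with its mimic and scramble counts. No interval reaches 0, which is likely for members picked by their ratio, and Zfp414, Zfp503, Zfp386 and Zfp664 have the narrowest.

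The ends also differed from each other in transcript make-up. Of the 10 lowest members, 6 had transcripts in the longest of 3 equal bins of all genes tested (over 3899 bases) and 1 in the shortest (up to 2267 bases), and 6 were in the bin of lowest GC content (up to 47.3%). Of the 10 highest, 6 were in the shortest bin and 4 in the longest, and 7 were in the bin of highest GC content (over 53.6%). Of all 305 members, 47 were in the shortest bin and 119 in the longest. By GC content, 170 members were in the lowest bin and 61 in the highest. The 6 lowest members of low GC content and the 4 highest members with long transcripts were thus near the family's shares.

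Of the 11 members at least 2-fold lower, 9 had fewer than 200 counts over both libraries. Zfp369 had 35 and 116 counts (-1.72, interval -2.32 to -1.17) and Zfp382 had 42 and 138 (-1.70, interval -2.25 to -1.21), and both carry KRAB. Next were Zfp551 (14 and 44 counts), Zfp169 (14 and 42), Zfp951 (40 and 92), Zfp109 (38 and 85), Zfp931 (17 and 38), Zfp398 (46 and 99) and Zfp964 (30 and 64), beside Zfp526 and Zfp652. For Zfp931, 66.2% of the 31-base words of its transcript are shared, so its count may be uncertain. Just inside the count minimum were Zfp811 (11 and 10 counts) and Zfp541 (10 and 14), and just outside were Zfp457 (7 and 11) and Zfp750 (8 and 6).

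Members are described next by their known roles. The repressors of imprinted genes and retroelements had 7 of 8 listed genes tested, with a median log2 ratio of -0.28 beside -0.14 for all members and 0.00 over all genes tested. Of these, 4 (57.1%) were lower and 1 (14.3%) higher beyond counting error, beside 32.5% and 31.5% of all genes tested, and with 7 genes these shares are coarse. Zfp568, which silences a placental promoter of Igf2, had 1779 and 2504 counts (-0.49, interval -0.58 to -0.41). Zfp445, which maintains imprints together with Zfp57, had 2259 and 3007 (-0.41, interval -0.49 to -0.33), whereas Zfp57 itself had 571 and 573 (-0.01, interval -0.18 to 0.16). The partners in imprint maintenance thus had unlike values. Zfp809, which silences retroviruses in embryonic cells, had 169 and 152 counts (0.15, interval -0.17 to 0.48). Zfp961 had 844 and 1023 (-0.28). Zfp932 had 236 and 317 (-0.43) and Zfp708 had 588 and 484 (0.28), but 72.6% and 100% of their 31-base words are shared with other transcripts, so both counts may be uncertain. Zfp819 was not tested, with 2 and 3 counts.

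Zfp transcription factors and cofactors had 23 of 27 listed genes tested. Their median count of 2971, against 1277.5 over all genes tested, narrows their intervals. The median log2 ratio was -0.08. Beyond counting error 9 (39.1%) were lower and 6 (26.1%) higher, near the 32.5% and 31.5% of all genes tested. The lowest was Zfp644, a partner of the H3K9 methyltransferases G9a and GLP, with 1584 and 2259 counts (-0.51, interval -0.61 to -0.42). Zfp462, a heterochromatin regulator with 33 finger motifs, had 789 and 1057 (-0.42), and Zfp704 had 4343 and 5758 (-0.41). Zfp521, which opposes the B-cell factor EBF1, had 2465 and 3240 counts (-0.39) and 27 finger motifs. Zfp148 had 1739 and 2234 (-0.36) where its paralog Zfp281 was slightly higher, and Zfp592 (1354 and 1617), Zfp827 (2764 and 3218), Zfp143 (189 and 231) and Zfp687 (1296 and 1422) were also lower. Those higher were Zfp219 (616 and 531 counts, 0.21), Zfp64 (600 and 526, 0.19), Zfp703 (1525 and 1362, 0.16), Zfp91 (4177 and 3922, 0.09), Zfp281 and Zfp217. Zfp703 and Zfp503 form the NET family of repressors, and both were higher with mimic. The intervals held 0 for Zfp161, Zfp260, Zfp318, Zfp335, Zfp410, Zfp451, Zfp516 and Zfp532. Zfp42, a marker of pluripotent cells, and Zfp131 had 0 counts in both libraries, and Zfp423 (3 and 1 counts) was below the minimum like Zfp750.

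Zfp proteins that act on RNA, ribosomes or the spindle lay close to 0. All 8 of the 9 listed genes found in the tables were tested, with a median of -0.02. Their median count was 2234, against 1277.5 over all genes tested. Beyond counting error 1 (12.5%) was lower and 2 (25%) higher, beside 32.5% and 31.5% of all genes tested. Zfp207 had 3443 and 3049 counts (0.17, interval 0.10 to 0.25) and Zfp622, which matures the large ribosomal subunit, had 1387 and 1270 (0.13, interval 0.02 to 0.24). Zfp106, an RNA-binding protein, had 3399 and 3761 (-0.15, interval -0.21 to -0.08). Zfp706 had 2428 and 2427 counts, and the intervals of Zfp326, Zfp346, Zfp593 and Zfp598, the last a sensor of collided ribosomes, also held 0.

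The corepressor pathway that KRAB members use was listed alongside. All 22 of its genes were tested, with a median of -0.10, and 12 (54.5%) were lower and 5 (22.7%) higher beyond counting error, beside 32.5% and 31.5% of all genes tested. These genes were also deeper, with a median of 5152.5 counts against 1277.5 over all genes tested, which narrows their intervals. Trim28, the scaffold that binds KRAB, had 6184 and 6365 counts (-0.04, interval -0.09 to 0.01). Setdb1, the H3K9 methyltransferase it recruits, had 3262 and 4051 (-0.31, interval -0.38 to -0.25), and its cofactor Atf7ip had 1374 and 1679 (-0.29). Of the heterochromatin proteins, Cbx1 had 614 and 769 counts (-0.33), Cbx5 24270 and 25886 (-0.09) and Cbx3 367 and 351 (0.06, interval holding 0). The lowest was Morc3, with 615 and 940 counts (-0.61, interval -0.76 to -0.47), and Rbbp7 had 2156 and 2745 (-0.35). Also lower were Hdac2 (9321 and 10047), Chd3 (7079 and 7841), Rbbp4 (2989 and 3171), Dnmt3a (2556 and 2848), Uhrf1 (1054 and 1149) and the HUSH subunit Mphosph8 (445 and 529). Mta1, a subunit of the NuRD deacetylase, was higher (5464 and 4498, 0.28), as were Pphln1 (1428 and 1247, 0.19), Dnmt1 (3101 and 2791, 0.15), Chd4 (5214 and 4933, 0.08) and Smarcad1 (3859 and 3657, 0.08). For Hdac1, Mta2 and Dnmt3b the interval held 0. No gene of this pathway differed 2-fold.

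The sequence that members share is the finger itself, and units from members at either end are shown so that the repeat can be read. Each is the first unit of its gene that ends in the conserved linker and has 84 bases, and capitals mark the codons of the 2 cysteines and 2 histidines. Zfp526 and Zfp160 were among the lowest members and Zfp771 among the highest, and each unit lies within the last coding exon (chr7:25225746-25225829, chr17:21025793-21025876 and chr7:127253850-127253933, plus strand, GRCm38).
Zfp526: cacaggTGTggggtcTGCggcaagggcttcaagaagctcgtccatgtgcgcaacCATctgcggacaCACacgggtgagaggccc
Zfp160: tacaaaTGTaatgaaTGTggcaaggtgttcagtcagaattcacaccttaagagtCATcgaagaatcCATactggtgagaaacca
Zfp771: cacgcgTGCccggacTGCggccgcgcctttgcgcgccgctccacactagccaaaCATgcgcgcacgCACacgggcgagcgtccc

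The reference transcripts of these genes ran from AT-rich to GC-rich, with a GC content of 37.6% for Zfp160, 57.5% for Zfp526 and 68.7% for Zfp771. Finger motifs were counted in the translated reference coding region of 303 members, and 10 had none. The median log2 ratio went down with each step in the number of motifs. It was 0.04 for the 27 members with 0 to 2 motifs, of which 12 (44.4%) were below 0. It was -0.06 for the 46 members with 3 to 6, -0.13 for the 83 with 7 to 10 and -0.17 for the 87 with 11 to 14. For the 60 members with 15 or more it was -0.25, and 50 of them (83.3%) were below 0. Of the 19 members with at least 20 motifs, 18 were below 0, the exception being Zfp142 with 36 motifs, 589 and 470 counts (0.32, interval 0.15 to 0.50). The median GC content of the transcripts went down as well, from 49.8% in the group with fewest motifs to 41.6% in that with most. Across members the Spearman correlation of the log2 ratio with the number of motifs was -0.27 (Pearson -0.25, n = 303), with GC content 0.34 (Pearson 0.30) and with transcript length -0.24 (Pearson -0.14). These points share the same 2 libraries, and the features are themselves related, with a Spearman correlation of -0.35 between motif number and GC content.

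**Figure D4:**
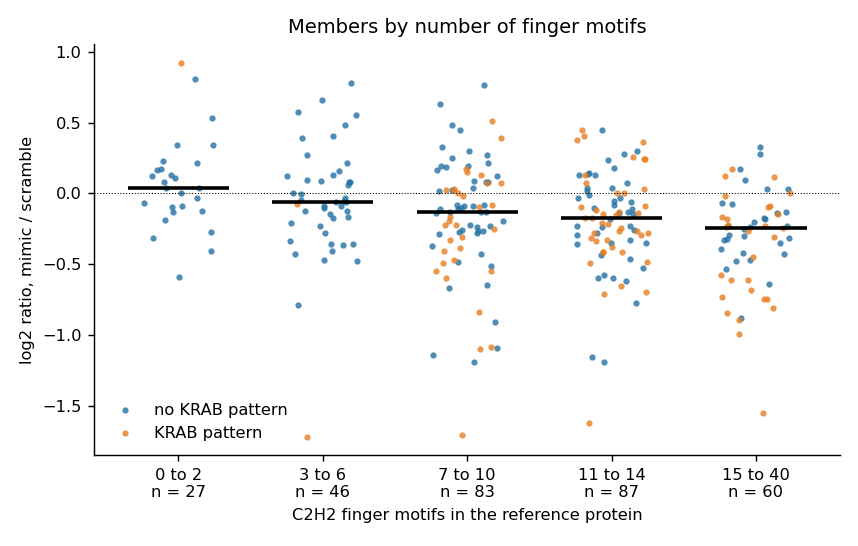
Log2 ratio of mimic to scramble (vertical axis) for 303 members grouped by the number of C2H2 finger motifs in the reference protein (horizontal axis), orange with and blue without a KRAB pattern, with black bars at group medians. The medians go down from 0.04 in the group with 0 to 2 motifs to -0.25 in the group with 15 or more, and every group spreads widely.

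The step with motif number was seen on both sides of the members' median GC content of 45.9%. At or below it, the medians were -0.00 for 20 members with 0 to 6 motifs, -0.23 for 91 with 7 to 14 and -0.29 for 41 with 15 or more. Above it, they were -0.05 for 53 members, -0.08 for 79 and -0.23 for 19. In the longer transcripts (over 3411 bases) the same groups had medians of -0.12, -0.19 and -0.24, and in the shorter ones 0.09, -0.10 and -0.25. Members with a KRAB pattern (106) had a median of -0.22 and 80 were below 0 (75.5%), those without (197) a median of -0.10 with 126 below 0 (64.0%). The pattern is a fixed string of residues, so members without it may still carry a KRAB domain, and the KRAB counts given here are counts of the pattern. Within GC content the KRAB groups were closer, at -0.23 with and -0.20 without at or below the median, and -0.10 with and -0.07 without above it. The 16 members with a SCAN pattern, a dimerization domain, had a median of -0.32 and 12 were below 0.

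The ratio also went along with transcript length and GC content among other genes, and the family is longer and richer in AT than they are. The median transcript length was 3411 bases for members and 2980 for the others, and the median GC content was 45.9% and 50.5%. In the shortest of 3 length bins the median log2 ratio was 0.13 for 47 members and 0.25 for other genes, and in the middle bin -0.14 for 139 members and -0.02 for others. In the longest bin it was -0.19 for 119 members and -0.19 for others, so that long members and other long genes had the same median. By GC content, medians were -0.22 for 170 members and -0.09 for others in the lowest bin, and 0.02 for 61 members and 0.12 for others in the highest. With both features binned together, members were lower than others in 7 of 9 cells and higher in 2, and the difference in medians ran from -0.38 to 0.04. The value of -0.38 came from a cell of 12 members, short and of middle GC content. Some cells tallied as lower were close. At middle GC content, medians were -0.07 for 32 members and -0.05 for others at middle length. For long transcripts they were -0.19 for 30 members and -0.19 for others. The largest cell for members, with middle length and lowest GC content, had medians of -0.21 for 85 members and -0.07 for others. Long transcripts of lowest GC content had -0.25 for 70 members and -0.24 for others, and short transcripts of highest GC content 0.30 for 20 members and 0.30 for others. How far length and base content account for the family's values was not tested.

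**Figure D5:**
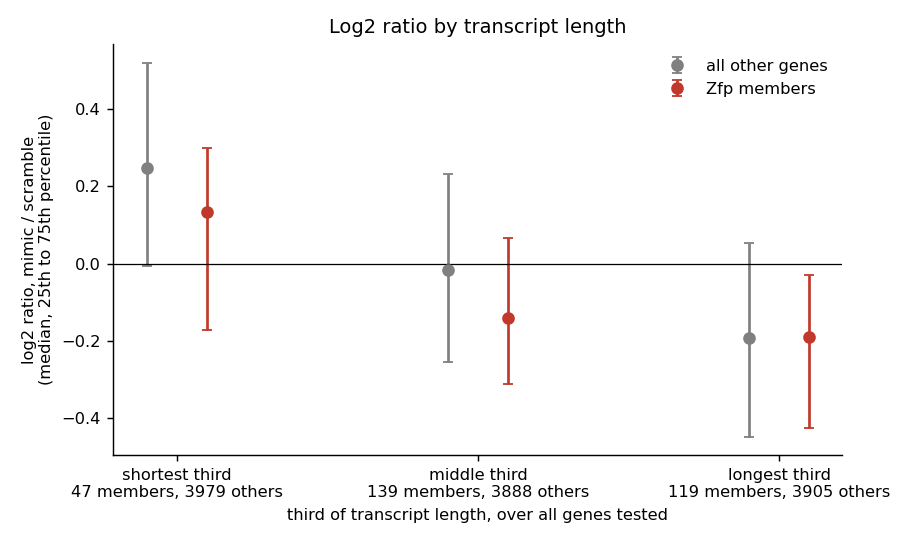
Median log2 ratio of mimic to scramble (vertical axis, bars from the 25th to the 75th percentile) in 3 equal bins of transcript length over all genes tested (horizontal axis), members in red and other genes in grey. Members lie lower in the shortest bin (0.13 and 0.25) and the middle bin (-0.14 and -0.02), and both medians are -0.19 in the longest.

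The members lay lower than other genes in each bin of counting depth. In 3 equal bins of summed count the members' medians were -0.20, -0.11 and -0.13 from low to high, and those of other genes were 0.10, 0.01 and -0.05. With at least 200 counts the median was -0.13 for 261 members, of which 176 (67.4%) were below 0, and -0.01 for 9852 other genes. By shared sequence, the 153 members with under 1% of their 31-base words in other transcripts had a median of -0.09, the 94 with 1 to 10% a median of -0.22 and the 56 with 10% or more a median of -0.15. Reads that align to more than 1 place are not in these counts, and their part in the ratios was not tested.

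The letters that pair with the seed of miR-181 are another sequence shared by fingers, and the miR-181 family is known to pair with the repeated coding regions of C2H2 genes. The miRNA is shown with its seed in capitals, from chr1:137966468-137966490 on the plus strand (GRCm38.p6, RefSeq). Beneath it are finger units in which capitals mark the first run of the matching letters TGAATGT. They come from Zfp930 (chr8:69228042-69228125, plus strand) and Zfp37 (chr4:62191851-62191934, minus strand), both in the coding part of exon 4 (GRCm38). The Zfp930 unit holds the same letters again further along, where they are left in lower case.
mmu-miR-181a-5p: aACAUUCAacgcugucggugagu
Zfp930: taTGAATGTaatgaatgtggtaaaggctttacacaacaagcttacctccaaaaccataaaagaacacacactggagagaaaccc
Zfp37: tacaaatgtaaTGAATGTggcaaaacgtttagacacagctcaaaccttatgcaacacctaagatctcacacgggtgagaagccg

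Of 303 members, 148 (48.8%) had at least 1 such match in the coding region, beside 1353 of 11462 other genes (11.8%). The density was 97.6 matches per 100 kb of members' coding sequence and 8.37 in other genes. Of the members' 574 matches, 511 lay in finger motifs. Of 1374 finger units ending in the linker, 266 (19.4%) held the match. The first match in the unit began at base 3 in 161 of them and at base 12 in 102. Later matches in the same unit, as in that of Zfp930, are not in these position counts. In the units of Zfp930 and Zfp37 the marked match covers a cysteine codon. Zfp442 had the most matches, 15, with 33 and 61 counts (-0.88, interval -1.54 to -0.25), and Zfp930 had 14, with 1716 and 1892 counts (-0.14, interval -0.24 to -0.05). Zfp820 had 13, with 1876 and 2176 counts (-0.21), and Zfp37, known for its expression in the testis, had 12, with 401 and 615 counts (-0.62, interval -0.80 to -0.43). The median log2 ratio was -0.09 for the 155 members with 0 matches, -0.15 for the 70 with 1 or 2 and -0.23 for the 78 with 3 or more, of which 65 (83.3%) were below 0. Other genes had medians of -0.15 with a coding-region match and 0.03 without, beside -0.22 and -0.09 in members, so the difference is not particular to the family. Among members, the group with 3 or more also had the lowest median GC content, 40.8%, against 51.0% for members with 0 matches. The median number of finger motifs rose as well, from 8 with 0 matches to 11 with 1 or 2 and 12 with 3 or more. miR-181 itself was not analysed here, and whether it was bound in these cells was not tested.

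By position on GRCm38, 141 members lay in runs of at least 3 with gaps of up to 200 kb, with a median of -0.18, and 164 lay alone or in pairs, with a median of -0.12. The runs differed among themselves. A run of 15 on chromosome 17 (chr17:21383748-22456689), with 12 KRAB members that include Zfp820, had 14 below 0 and a median of -0.21. Another run of 15, on chromosome 13 (chr13:67038596-67827002), which holds Zfp458, Zfp748 and Zfp708, had a median of -0.31 with 10 below 0, and values from -0.99 to 0.36. A run of 14 on chromosome 7 (chr7:29768552-30169750), with Zfp568 and Zfp382, had 12 below 0 and a median of -0.18. Other runs went the opposite way. The 8 members at chr7:127233061-127615797, with Zfp688 and Zfp771, had a median of 0.13 with 2 below 0. The 4 at chr9:22055411-22307648, with Zfp809, had a median of 0.11 with 0 below 0. The 5 at chr7:6131491-6396915 had a median of 0.37 with 1 below 0. In that run Zfp787 had 482 and 353 counts (0.45) and Zfp28 had 244 and 188 (0.37), while Zfp667 had 430 and 651 (-0.60). Runs were set by position alone. Genes of a run may share ancestry and sequence, which was not examined, so they cannot be taken as independent of each other.

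Related families of C2H2 genes stood on either side of the Zfp members. The 33 Zbtb genes, which join a BTB domain to their fingers, had a median of -0.17 with 25 below 0 (75.8%). The 14 Klf genes, which have fingers at the end of the protein, had a median of -0.17 with 9 below 0, and the 13 Zscan and Zkscan genes had a median of -0.01 with 7 below 0. Zbtb genes also have long transcripts, with a median of 4572 bases, but a median GC content of 51.1%. These families were given by counts alone, and their differences from the Zfp members were not tested.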

How the data were processed

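For each Ago2 IP library the authors deposited a table of raw counts, keyed by gene symbol, with 5 summary rows that name no gene. The submitters' processing notes name CASAVA 1.8.2, TopHat2 2.0.8b, HTSeq and mm9, and the annotation and strand setting are not given in the sources used here. Reads on more than 1 gene (0.653% and 0.585% of entries) or place were not counted, and 6.84% and 7.89% lay outside genes. Library sizes were scaled by TMM in edgeR 4.0.16 (factors 1.0026 for mimic and 0.9974 for scramble), and the log2 ratio was taken with a prior count of 0.5. With 1 library per condition the quasi-likelihood test could not be fitted. Intervals are exact Clopper-Pearson at 95%. The computation was tested on simulated data.

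Lengths, GC content, motifs and shared 31-base words came from 1 GENCODE M21 transcript a gene (GRCm38, longest coding region). A word was called shared if the transcript of any other gene held it, overlapping genes included. The share therefore does not measure how many reads were lost. All 305 members matched, 293 by symbol and 12 by a RefSeq synonym, 7 of these now named Zbtb, Zscan or Zkscan. Finger motifs followed the pattern C, 2 to 4 residues, C, 12 residues, H, 3 to 5 residues, H. The KRAB pattern was [FL]-x-[DEQ]-V-x-[VIL]-x-F-[ST]-x-x-E-W and the SCAN pattern E-Q-F-L-x-x-[LI]-P, with x for any residue. Domains that depart from these patterns were missed. Named genes were the 10 highest and 10 lowest with at least 200 counts, the 5 with most counts, members on 3 role lists and the corepressor list. The members at the count minimum were named too. Names outside these (2-fold members, seed match carriers, members of runs) were chosen after their values were seen. Members and lists were chosen with earlier results of these data known, and the searches for seed matches, shared words and gene runs were added after seeing the data. A Sertoli marker is not reported here.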

Additional observations from a re-analysis of the deposited data

Results flagged for a closer look

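The row for alignments to more than 1 place, which enters no comparison between genes, took 39.8% of entries with mimic and 35.6% with scramble (14095378 and 11915725 entries). It drew attention because it lies outside the gene counts and is larger in the mimic library than in the control. Which genes these alignments belong to is not recorded in the tables, and their part in the values of members with near-identical copies was not tested.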

How the results depend on the processing

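The 5 summary results (the median, the members at least 2-fold lower or higher, and the members lower or higher beyond counting error) were recomputed under other scalings, count filters, memberships, prior count and fold threshold, each where it applies. Of the 35 recomputed values, 31 stayed near the value reported and 0 turned in direction. Members at least 2-fold lower were 2 in place of 11 with at least 200 counts, since 9 of them had fewer. That was 0.766% of 261 members, beside 1.91% of 9852 other genes with at least 200 counts. At a threshold of 1.5-fold, 37 members were lower. Members at least 2-fold higher were 5 in place of 0 among 321 members with at least 1 count, and 6 at a threshold of 1.5-fold. The shares over all genes at 1.5-fold and with at least 1 count are not given here, so these counts have no background beside them. With size factors of DESeq2 the median was -0.14 and with total counts -0.13, and a scaling shifts all genes alike. The shares below 0 were 67.2% and 66.9% in place of 68.2%. The log2 ratios of 81 named genes, each under 3 alternatives (both scalings and a prior count of 5), stayed within their counting intervals. No paired analysis was possible because each condition has 1 library and no test was fitted. Depth limits the members with few counts, whose intervals are wide, and the spread between cultures cannot be had from these libraries.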
